A study of Mus musculus with 8 samples.

Results

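Trem2, Tyrobp, Gpnmb, Spp1, Cd9, Lpl, Lgals3, Apoe, Fabp5 and Fabp4 are core genes of the lipid-associated macrophage, the cell state that gathers around TREM2 in fatty tissue. These 10 genes were taken by symbol from the 15853 genes of the deposited comparison, and all 10 had an adjusted p-value, as did 14619 genes in all. RNA-seq was performed on bone marrow-derived macrophages of mice, differentiated for 7 days in L929 conditioned medium. Palmitate at 250 uM, glucose at 25 mM and insulin at 10 nM were then given for 24 h, a mixture that loads macrophages with saturated fat and is termed metabolic activation. The 4 control libraries came from mice of genotype Mirc11fl/fl Mirc22fl/fl Lyz2+/+ and the 4 knockout libraries from mice of genotype Mirc11fl/fl Mirc22fl/fl Lyz2Cre/Cre. Both genotypes thus carried loxP-flanked copies of the 2 miR-23-27-24 clusters, Mirc11 and Mirc22. Only the knockout carried Cre recombinase, driven by the myeloid gene Lyz2 and inserted in both of its copies, so the genotypes differ in Cre and in Lyz2 as well as in the clusters. All cells received the palmitate mixture, and no untreated cells are part of the comparison. The series calls the libraries of a genotype biological replicates. Whether each came from its own mouse is not given, so a p-value here covers only variation among these libraries, which may be technical.

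TREM2 is a surface receptor for lipids, lipoproteins and apolipoprotein E. It has no signalling tail and passes its signal through the adaptor DAP12, encoded by Tyrobp, to the kinase SYK. In obese adipose tissue, TREM2 is needed for macrophages to form the lipid-handling state in which the lipase LPL, the fatty acid-binding proteins FABP4 and FABP5, galectin-3, osteopontin, CD9 and GPNMB are made together. The title of the series links the deleted miRNA clusters to the proliferation of these macrophages, and the comparison here asks whether their signature genes differ when the clusters are deleted in culture.

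In the knockout, the fatty acid-binding genes Fabp4 and Fabp5, the receptor gene Trem2, the lysosomal glycoprotein gene Gpnmb and the galectin-3 gene Lgals3 were lower, by 7.49% to 36.1%. No member was called higher. Lpl, Spp1 and Apoe had positive fold changes, and Tyrobp and Cd9 negative ones, without passing the threshold of an adjusted p under 0.05. The 5 calls are 50% of the members. Of all genes tested 11.7% were called lower and 11.3% higher. Of the 4610 genes at least as abundant as Fabp4, the least abundant member, 18.2% were called lower and 8.07% higher. The median log2 fold change of the members was -0.16, against -0.0040 over all genes tested and -0.05 over those 4610 genes. The members were chosen with results of these data known, so these counts are a description.

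No value by library is given, because the columns that hold them match no sample label. Each gene is therefore given by the authors' mean over the 8 libraries, their log2 fold change and its standard error (SE), and by group means derived from the mean and the fold change. Whether libraries of the genotypes overlap for a gene was not examined. In the authors' deposited table Lyz2, into which Cre was inserted, had a log2 fold change of -9.10 (SE 0.42), and the sign of all values rests on reading this as the knockout. The 10 members made up 3.66% of the summed mean normalized count of all genes listed, and the depth of each library is unknown.

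The miRNAs that the deleted clusters encode act by pairing their seed, bases 2 to 8, with sites in 3' UTRs of mRNAs. Their mature sequences are shown because the search of the members rests on them (RefSeq, GRCm38.p6, 5′ to 3′, seed in capitals). miR-27a and miR-27b share 1 seed. For miR-23 the sequence of miR-23a-3p was used, and miR-23b-3p was not analysed here.
mmu-miR-23a-3p: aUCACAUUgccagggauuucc
mmu-miR-27a-3p: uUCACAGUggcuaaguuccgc
mmu-miR-27b-3p: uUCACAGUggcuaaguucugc
mmu-miR-24-3p: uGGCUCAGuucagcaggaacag

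Of the 10 members, 1 had a seed match in its longest annotated 3' UTR, and that member, Lpl, had a match for each of the 3 miRNAs. The sites lie in exon 10 of 10, within the 3' UTR of 2428 nt, on the plus strand of chromosome 8 (mm10). Each is shown with its neighbouring bases in 30 nt of the transcript, with the match in capitals.
Lpl, miR-27, chr8:68906346-68906353: tgggagcagaaACTGTGAAatttgtgggta
Lpl, miR-23, chr8:68906413-68906419: agtcgtcattcAATGTGAttcagaaaggaa
Lpl, miR-24, chr8:68906815-68906822: tgtctgtctcaCTGAGCCAacttaactctg

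The miR-27 and miR-24 matches are of the 8-nucleotide kind and the miR-23 match of the 7-nucleotide kind. Among 13074 tested genes with an annotated 3' UTR, 53.4% had a match for at least 1 of the 3 miRNAs and 4.95% for all 3, as Lpl does. The median 3' UTR of the 10 members was 432 nt, against 1166 nt over those genes, and besides Lpl only Gpnmb, with 1868 nt, lay above that median. Only Gpnmb gained a site when every coding transcript was searched, a 7-nucleotide miR-23 match in a transcript with a 3' UTR of 803 nt. No match was thus found in any coding transcript of the 4 other genes called lower, Fabp4, Fabp5, Trem2 and Lgals3. Among the 647 genes with sites for all 3 miRNAs 19.3% were called higher and 7.57% lower in the knockout, against 8.96% and 14.9% of the 6093 genes with none. The 647 genes also had long 3' UTRs, with a median of 3935 nt, and the part of UTR length in these shares was not tested. A match describes the sequence and does not show that the miRNA binds there in these cells.

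Trem2, the receptor of the signature, lies at chromosome 17, 48346401 to 48354147 (mm10, plus strand), and its longest coding transcript has 5 exons. Its derived mean was 69849 normalized counts in control and 59308 in knockout cells, a decrease of 15.1% (95% interval 5.34% to 23.8%). The authors' deposited table gives Trem2 a log2 fold change of -0.24 with an SE of 0.08 and, by DESeq2, an adjusted p of 0.0189. The call was lost when fold changes were centred on the summed group means (log2 fold change -0.17, adjusted p = 0.104). Tyrobp, the adaptor gene at chromosome 7, 30413760 to 30417585, was derived at 47672 normalized counts in control and 44202 in knockout cells. At -0.11 on the log2 scale, with an SE of 0.05 and an adjusted p of 0.0899 in the authors' deposited table, it missed the threshold. Its interval, from 0.90% to 13.2% lower, lay below the control level, but the gene did not pass the adjustment over all genes. Per kilobase of transcript the adaptor was the more abundant of the pair, with 76946 normalized counts per kb over all libraries against 59355 for Trem2.

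Gpnmb encodes a transmembrane glycoprotein of lysosomes and is a known target of the MITF and TFE transcription factors that respond to lysosomal load. It was the third most abundant of all genes listed, with a mean of 823137 normalized counts. The derived means were 887849 in control and 758424 in knockout cells, which is 14.6% lower (95% interval 7.64% to 21.0%). On the log2 scale this is -0.23 in the authors' deposited table, with an SE of 0.06 and an adjusted p of 0.000931. Gpnmb lies at chromosome 6, 49036546 to 49070929, on the plus strand.

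Fabp4 and Fabp5 encode cytosolic carriers of fatty acids that are also known from adipocytes and epidermis. Both were lower in the knockout, and they had the largest decreases among the members. Fabp4 was derived at 3604 normalized counts in control and 2303 in knockout cells, 36.1% lower (95% interval 20.0% to 48.9%). Fabp5 was derived at 53988 in control and 40952 in knockout cells, 24.1% lower (95% interval 15.3% to 32.1%). On the log2 scale the authors' deposited table has -0.65 for Fabp4 (SE 0.17, adjusted p = 0.0011) and -0.40 for Fabp5 (SE 0.08, adjusted p = 2.2e-05). The genes lie 187 kb apart on chromosome 3, Fabp5 at 10012548 to 10016607 on the plus strand and Fabp4 at 10204088 to 10208576 on the minus strand. Per kilobase Fabp5 stood at 48095 normalized counts and Fabp4 at 3297. Their transcripts share no run longer than 12 nt. Fabp5, however, has processed pseudogene copies: 33.1% of the 31-nt words of its longest coding transcript occur in transcripts of 5 other annotated genes. The copy with most shared words, Gm6166, had a mean of 7.78 normalized counts in the authors' deposited table, against 47470 for Fabp5, and how reads shared with such copies were divided is unknown, so the value of Fabp5 is uncertain to that extent.

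Lgals3 encodes galectin-3, a lectin that binds sugar chains on the cell surface and on damaged lysosomes. It lies at chromosome 14, 47367751 to 47386160, on the plus strand. The derived means were 175731 normalized counts in control and 162569 in knockout cells. The decrease of 7.49% (95% interval 2.63% to 12.1%) was the smallest among the members called lower. The authors' deposited table gives Lgals3 -0.11 on the log2 scale, with an SE of 0.04 and an adjusted p of 0.0174. With centring on the summed group means the value was -0.05 and the call was lost (adjusted p = 0.366).

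Lpl encodes the enzyme that releases fatty acids from triglyceride-rich lipoproteins, and its fold change was positive. It lies at chromosome 8, 68880491 to 68907448, on the plus strand. Its derived means were 497869 normalized counts in control and 604486 in knockout cells, a ratio of 1.21 (95% interval 1.02 to 1.44). With 0.28 on the log2 scale, an SE of 0.13 and an adjusted p of 0.0957 in the authors' deposited table (0.0284 before adjustment), Lpl missed the threshold. Lpl passed it as higher when fold changes were centred on the summed group means (adjusted p = 0.0363), also with Lyz2 left out of those sums (adjusted p = 0.0436).

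Spp1 encodes osteopontin, a secreted phosphoprotein that binds integrins and CD44, and Apoe encodes the apolipoprotein that binds TREM2 and the LDL receptor family. Spp1 was derived at 448855 normalized counts in control and 591722 in knockout cells, a ratio of 1.32 whose 95% interval ran from 0.77 to 2.24. For Spp1 the authors' deposited table has 0.40 on the log2 scale with an SE of 0.39, nearly as large as the value itself, and an adjusted p of 0.496. Apoe was derived at 303857 in control and 330016 in knockout cells, a ratio of 1.09 (95% interval 0.89 to 1.32). For Apoe the authors' deposited table has 0.12 with an SE of 0.15 and an adjusted p of 0.6. Neither gene differed between the genotypes beyond its error, and a 2-fold rise of Spp1 lies within its interval. Spp1 lies at chromosome 5, 104435118 to 104441050 (plus strand), and Apoe at chromosome 7, 19696109 to 19699188 (minus strand). In Spp1, 10.2% of the 31-nt words are shared with the overlapping annotation Gm42793.

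Cd9 encodes a tetraspanin, a membrane organiser used with TREM2 to sort lipid-associated macrophages. It lies at chromosome 6, 125460266 to 125494791, on the minus strand. The derived means were 19699 normalized counts in control and 17003 in knockout cells. Its log2 value of -0.21 in the authors' deposited table had an SE of 0.16 and an adjusted p of 0.34, with an interval from 30.2% lower to 6.75% higher. A change of the size seen for Trem2 lies within that interval, so Cd9 neither passed nor can be said to be unchanged. The processed pseudogene Cd9-ps shares 6.26% of the 31-nt words of Cd9.

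**Figure D1:**
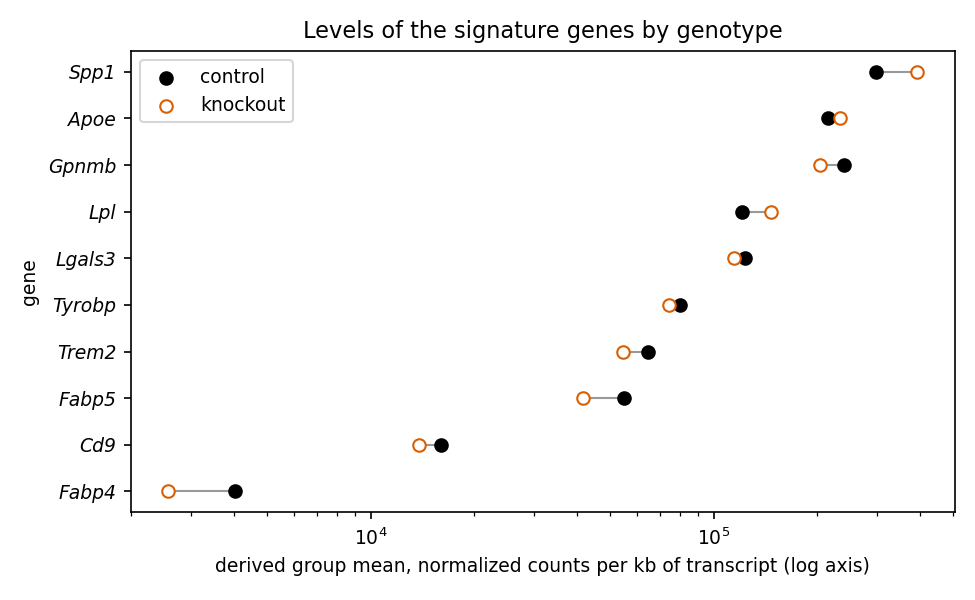
Derived group means of the 10 signature genes in normalized counts per kb of the longest coding transcript (log axis), control as filled and knockout as open circles, with no error shown. Spp1, Apoe and Gpnmb were the highest, Fabp4 the lowest, and the shift between genotypes was small beside the 105-fold range between genes.

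Levels between members can be compared only per length. Over all libraries the order ran from Spp1, at 345248 normalized counts per kb, through Apoe (225097), Gpnmb (222409), Lpl (133943), Lgals3 (119204), Tyrobp, Trem2 and Fabp5 to Cd9 (14944) and Fabp4. The neighbours Apoe and Gpnmb differed by little, and their order turned when the union of all coding exons was taken as the length, with 158310 for Apoe and 182352 for Gpnmb. The other members kept their place. By mean normalized count, with no regard to length, 6 members were among the 100 most abundant genes. Cd9 ranked 653 and Fabp4, the member with the largest fold change, 4610. The plot of levels per kb shows both genotypes for each gene. In bulk RNA, fewer cells that express a gene and less of its RNA per cell cannot be told apart.

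**Figure D2:**
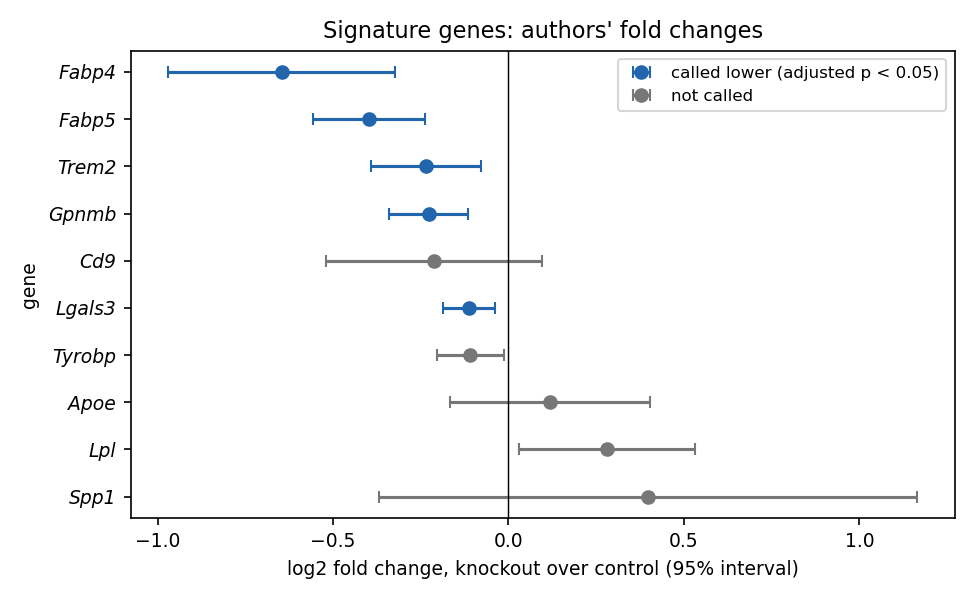
Authors' log2 fold change, knockout over control, of each signature gene with a 95% interval from the deposited SE (4 libraries per genotype). Blue points passed an adjusted p under 0.05 as lower, grey points did not. Fabp4, Fabp5, Trem2, Gpnmb and Lgals3 lie below 0 with their whole interval, and Spp1 has the widest interval.

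The plot of fold changes with their intervals shows 3 kinds of member. Fabp4 and Fabp5 lie farthest below 0, with intervals that do not reach a decrease smaller than 15.3%. Trem2, Gpnmb, Lgals3 and Tyrobp had means 7.28% to 15.1% below control, measured with SEs of 0.04 to 0.08. Spp1, Lpl, Apoe and Cd9 had SEs of 0.13 or more, and each missed the threshold. The intervals of Lpl, from 0.03 to 0.53 on the log2 scale, and of Fabp4, from -0.97 to -0.32, do not overlap. Differences between members were not tested.

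**Figure D3:**
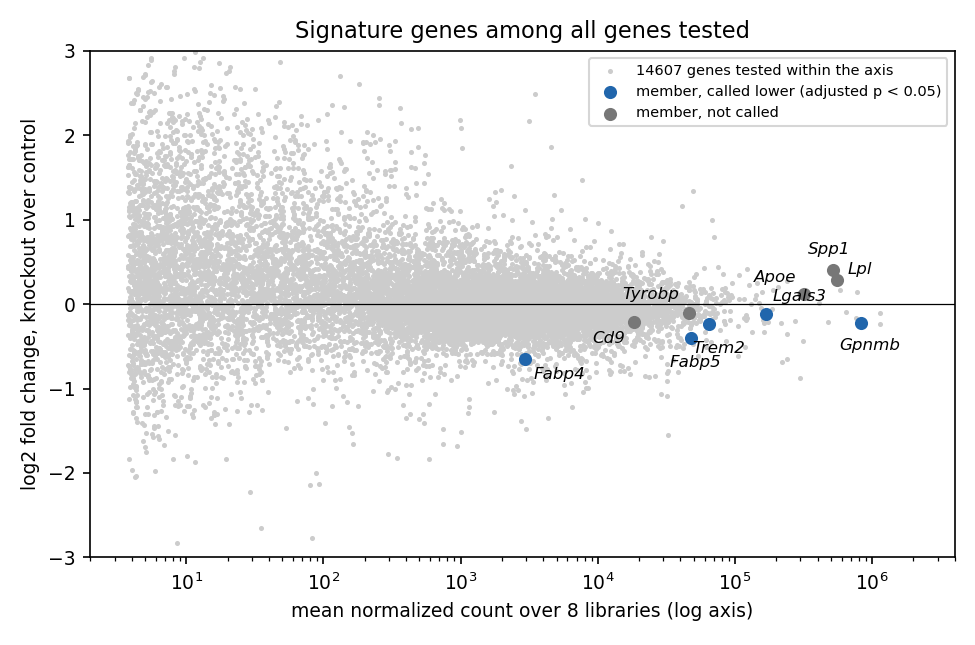
Mean normalized count over 8 libraries (log axis) against log2 fold change, knockout over control, for genes tested that fall within the axis (light grey) and the 10 signature genes (blue, called lower; dark grey, not called). The members sit at the abundant end, where fold changes of all genes are narrow.

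Small fold changes were usual for genes this abundant. Of the 4610 genes at least as abundant as Fabp4, only 2.99% changed by 1.5-fold or more in either direction, among them Fabp4 itself. When the test was set against a change of 1.2-fold in place of no change, 0 members passed with the deposited estimates and SEs. The plot of fold change against abundance shows the members among these genes.

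**Figure D4:**
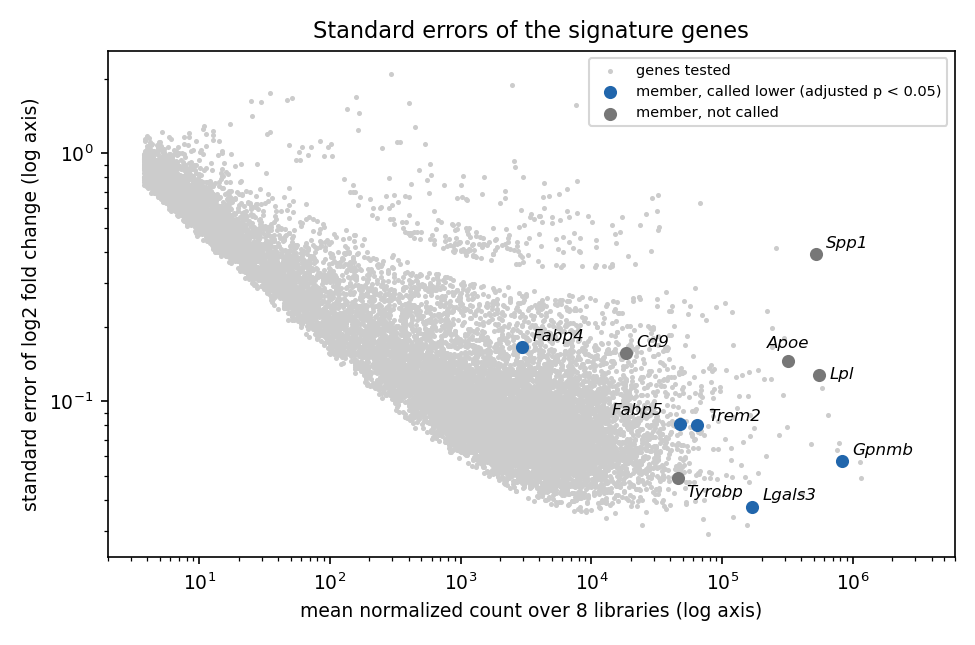
SE of the log2 fold change against the mean normalized count (both log axes) for the genes tested and the 10 signature genes. Spp1 lies far above the genes of like abundance, Cd9 and Fabp4 above most, and Lgals3 and Tyrobp near the lower edge.

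The members differed widely in how much they varied between libraries. Spp1 had an SE 4.95 times the median of the 13 genes with a mean within 2-fold of its own, and all 13 had a smaller SE. If counting error is negligible and both genotypes vary alike, its SE corresponds to a coefficient of variation of 38.3% between libraries of 1 genotype. The SE of Cd9 was 2.13 times and that of Fabp4 2.1 times the median of genes of like abundance. Lgals3, at 0.4 times, and Tyrobp, at 0.65 times, were among the steadiest genes of their abundance, with coefficients of variation of 3.69% and 4.8% on the same reading. Fabp4 was thus called lower in spite of a spread above that of 93.2% of its like, and Lgals3 was called with a small difference and a small spread.

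Promoter windows, 250 bases before to 50 bases after a RefSeq start, were available for 6 members, in 9 windows. They were searched on both strands for CACGTG, the E-box of MITF and TFE factors, for GAGGAAGT, a core of the macrophage factor PU.1, for TGANTCA, the AP-1 motif, for the direct repeat of PPAR and RXR with a spacer of 1 base, and for TATAAA. Trem2 and Gpnmb, both called lower, each held 1 match to TGANTCA, and 7.81% of 32851 windows of this length held at least 1. Only the Gpnmb match, TGACTCA, has C or G in the middle, and that of Trem2 is TGAATCA. How many windows hold the stricter form was not counted. Lgals3, also called lower, held none, and no window of Fabp4 or Fabp5 was searched. The match starts 9 bases before the RefSeq start of Trem2 and at base 9 counted from the RefSeq start of Gpnmb. That Gpnmb start lies upstream of the GENCODE start at 49036546, so in GENCODE the match lies before the gene. Both windows are shown 5′ to 3′ (GRCm38.p6, plus strand, the match in capitals), because these are the 2 members called lower with a match.
Trem2, chr17:48346151-48346450: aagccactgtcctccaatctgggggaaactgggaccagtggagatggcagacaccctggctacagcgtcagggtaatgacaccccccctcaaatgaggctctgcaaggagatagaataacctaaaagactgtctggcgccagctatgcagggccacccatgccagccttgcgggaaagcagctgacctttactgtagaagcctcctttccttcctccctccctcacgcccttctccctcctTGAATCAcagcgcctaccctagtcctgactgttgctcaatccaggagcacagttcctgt
Gpnmb, chr6:49036268-49036567: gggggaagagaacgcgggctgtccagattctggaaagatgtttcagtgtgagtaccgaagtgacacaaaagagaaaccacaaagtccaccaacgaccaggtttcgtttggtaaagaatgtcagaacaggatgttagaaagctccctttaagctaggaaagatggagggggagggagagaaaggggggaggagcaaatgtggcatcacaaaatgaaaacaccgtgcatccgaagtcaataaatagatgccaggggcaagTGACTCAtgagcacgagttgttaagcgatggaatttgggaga

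Of the other members with a window, Spp1 held a PU.1 match and a TATAAA match, and Apoe held TATAAA matches in 1 of its 3 windows. CACGTG and the PPAR and RXR repeat were found in none of the 9 windows. They occurred in 7.15% and 0.04% of all windows. Other forms of the E-box were not searched. Matches describe letters only, and AP-1 activity was not measured.

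The genes beside the members on the chromosome were mostly not called. Of 40 tested genes within 100 kb of a member, 3 were called lower and 4 higher, 17.5% in all, against 23.0% of all genes tested. In the Trem gene cluster on chromosome 17, Treml1, a receptor gene of the TREM family 5.77 kb from Trem2, was higher, and the authors' deposited table gives 0.49 on the log2 scale (SE 0.16, adjusted p = 0.0126). Hcst, which encodes the adaptor DAP10 and lies 0.13 kb from Tyrobp, has -0.37 in the authors' deposited table, with an SE of 0.16 and an adjusted p of 0.0867. Beside Apoe, the apolipoprotein genes Apoc1, Apoc2 and Apoc4 were not called, with log2 fold changes of -0.24, -0.01 and -0.43 in the authors' deposited table. Nectin2, an adhesion receptor gene 17.5 kb from Apoe, was called higher in the authors' deposited table, at 0.66 (SE 0.08). Gm19253, a predicted gene 0.70 kb from Gpnmb, was lower, at -0.45 in the authors' deposited table with an SE of 0.11 and an adjusted p of 0.000931. The other genes called lower were Nfkbid, near Tyrobp, at -0.38, and Tnfrsf1a, 97.8 kb from Cd9, at -0.26, and the others called higher were Lrfn3, near Tyrobp, at 1.2, and Igf2bp3, near Gpnmb, at 0.72, in the authors' deposited table. Neighbours and genes named without being called were chosen after their values were seen.

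**Figure D5:**
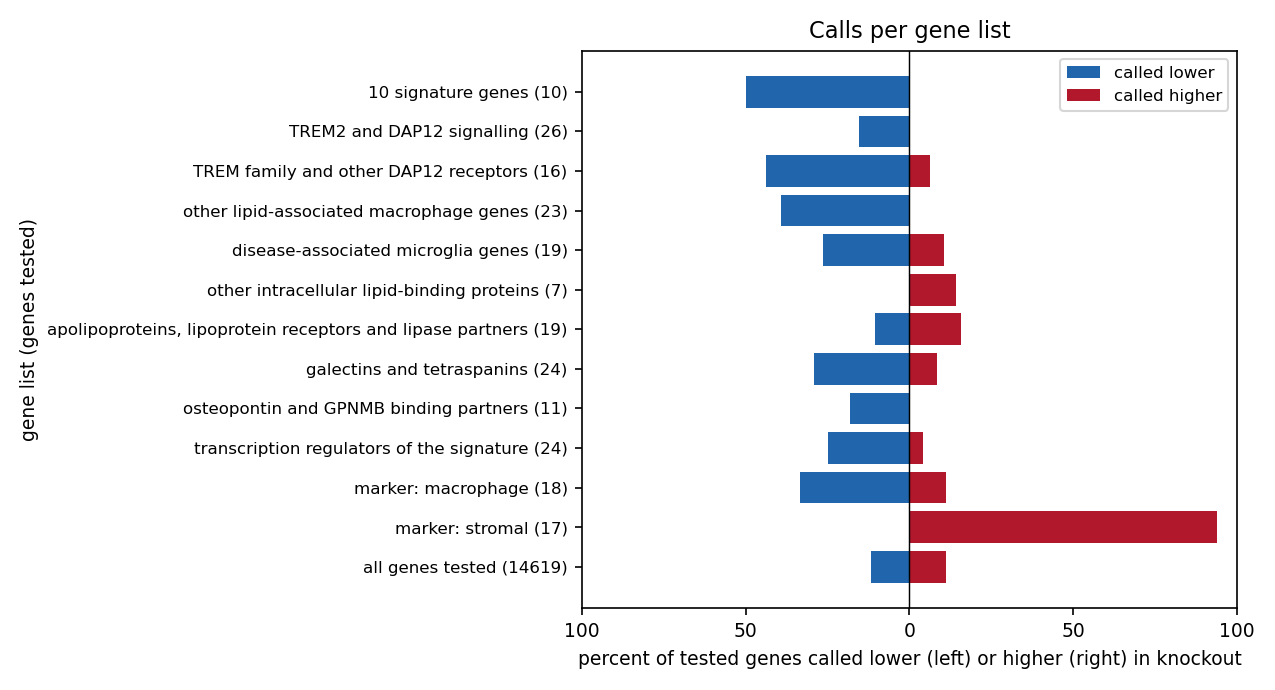
Percent of tested genes called lower (left, blue) or higher (right, red) in the knockout at an adjusted p under 0.05, for the 10 signature genes, 9 related gene lists, 2 marker lists and all genes tested; the number tested stands in brackets. The list of TREM family genes and other DAP12 receptors, which also holds Cd300, Pilr and Ms4a genes, leans to the left. So do the other lipid-associated macrophage genes, the macrophage markers and most other related lists, while stromal markers are nearly all on the right.

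Of 26 genes of TREM2 and DAP12 signalling, 4 were called lower and 0 higher, and the median log2 fold change was -0.09. The share called lower, 15.4%, lies near the 11.7% of all genes and below the 18.2% of genes at least as abundant as Fabp4. The 4 were the kinase gene Btk (-0.16, SE 0.04), the adaptor gene Dok1 (-0.26, SE 0.07), the PI3-kinase subunit gene Pik3cd (-0.22, SE 0.08) and the exchange factor gene Vav1 (-0.29, SE 0.11), with log2 fold changes from the authors' deposited table. Centring on the summed group means left 1 called lower and gave 2 called higher. Syk, the kinase recruited by DAP12, was at -0.01 (SE 0.06) and Plcg2, the phospholipase below it, at -0.10 in the authors' deposited table (SE 0.06, adjusted p = 0.276). Adam10 and Adam17, proteases that shed TREM2 from the surface, were not called, with adjusted p-values of 0.384 and 0.0617 in the authors' deposited table.

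A list of receptors that pair with DAP12 also held genes of the TREM, Cd300, Pilr and Ms4a families, not all of which pair with DAP12. Of its 16 tested genes 7 were called lower and 1 higher, with a median log2 fold change of -0.37. The shares over all genes tested were 11.7% lower and 11.3% higher, and over genes at least as abundant as Fabp4 18.2% and 8.07%. Centring on the summed group means left 5 called lower, and 0 were called lower against a 1.2-fold change. Clec5a, a DAP12-coupled lectin gene, was at -0.56 in the authors' deposited table (SE 0.11, adjusted p = 1.55e-05). Ms4a4a and Ms4a7, four-span membrane protein genes of the locus known to modulate soluble TREM2, were at -0.46 (SE 0.11) and -0.52 in the authors' deposited table (SE 0.14). Cd300lb, an activating receptor gene, was at -0.29 in the authors' deposited table (SE 0.08). Each value lies below that of Trem2, and differences between genes were not tested. Reads of closely related Sirpb1 and Cd300 copies may be divided among them, so values of those genes are uncertain.

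Beyond the core, 23 further genes of the lipid-associated state had 9 called lower and 0 higher, with a median of -0.11. Over all genes tested 11.7% were called lower and 11.3% higher, and over genes at least as abundant as Fabp4 18.2% and 8.07%. In the authors' deposited table the clearest were Capg, an actin-capping protein gene, at -0.43 (SE 0.04), Ctss, cathepsin S, at -0.88 (SE 0.18), Syngr1, a vesicle membrane protein gene, at -0.41 (SE 0.09), and Ctsb, cathepsin B, at -0.24 (SE 0.06). With centring on the summed group means 3 members of this list were called higher. Genes of disease-associated microglia, the brain counterpart of this state, had 5 of 19 called lower and 2 higher, with a median of -0.19. Clec7a, which encodes the beta-glucan receptor dectin-1, was at -0.85 (SE 0.17), while Csf1, the gene of the growth factor M-CSF, was higher at 0.51 in the authors' deposited table (SE 0.13). Dkk2, a Wnt inhibitor gene, was at -2.14 (SE 0.32) and Lilrb4a, an inhibitory receptor gene, at -0.42 in the authors' deposited table (SE 0.13). Itgax and Axl, 2 further marker genes of this state, were at 0.08 with SEs of 0.42 and 0.47 in the authors' deposited table, too imprecise to place.

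Among relatives of the lipid carriers Fabp4 and Fabp5, of 7 tested other intracellular lipid-binding genes 0 were called lower and 1 higher, Fabp3, the heart-type fatty acid-binding gene, at 0.71 in the authors' deposited table (SE 0.25, adjusted p = 0.0239). Fabp7 was at -0.53, but with an SE of 0.65, in the authors' deposited table. Among 19 apolipoprotein, lipoprotein receptor and lipase partner genes, 3 were called higher and 2 lower, with a median of -0.04. Both shares lie near those of all genes tested, 11.3% higher and 11.7% lower. Abca1, the cholesterol exporter that loads apolipoprotein E, was at 0.79 (SE 0.22), Sort1, a sorting receptor that carries LPL, at 0.63 (SE 0.14) and Scarb1, a lipoprotein receptor, at 0.25 in the authors' deposited table (SE 0.05). Lmf2, a homologue of the lipase maturation factor, was lower at -0.38 (SE 0.11), and Lmf1, which folds LPL, was at -0.18 in the authors' deposited table (SE 0.08, adjusted p = 0.085). Angptl4, an inhibitor of LPL, was at 0.06 in the authors' deposited table (SE 0.14).

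The list of galectins and tetraspanins, the families of Lgals3 and Cd9, also holds the partner genes Lgals3bp, Ptgfrn and Igsf8, which belong to neither family. Of its 24 tested genes 7 were called lower, among them Igsf8, and 2 higher, with a median of -0.10. The tetraspanin genes Cd151 (-0.72, SE 0.05), Tspan13 (-0.88, SE 0.11), Cd37 (-0.38, SE 0.06) and Tspan17 (-0.48, SE 0.08) led the list in the authors' deposited table. Each had a smaller SE than Cd9. Lgals1, encoding galectin-1, was at 0.26 in the authors' deposited table (SE 0.11, adjusted p = 0.0575). Of 11 binding partners of osteopontin and GPNMB, 2 were called lower, with a list median of -0.07. That share lies near the 18.2% of genes at least as abundant as Fabp4, against 11.7% of all genes tested. The 2 were the integrin chain genes Itga5 (-0.69, SE 0.18) and Itgb5 (-0.50, adjusted p = 0.0467, SE 0.20) of the authors' deposited table. Itgb5 lost its call without a filter on low means and under both centrings on the summed means, which each left 1 gene called lower. Cd44, a receptor of osteopontin, was at 0.16 in the authors' deposited table (SE 0.08, adjusted p = 0.112).

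Of 24 transcription regulators linked to these genes, 6 were called lower and 1 higher, with a median of -0.10. In the authors' deposited table Tfeb, a factor of lysosomal genes, was at -0.33 (SE 0.06), Spi1, which encodes PU.1, at -0.34 (SE 0.10), and Rxrb, a nuclear receptor partner, at -0.29 (SE 0.10). Flcn, which restrains TFEB and TFE3, was higher at 0.22 in the authors' deposited table (SE 0.07). Centring on the summed group means left 2 called lower. Mitf was at -0.09 (SE 0.10), Pparg, the nuclear receptor known to induce Fabp4 and Lpl, at 0.03 (SE 0.12), and Nr1h3, the LXR alpha gene known to induce Apoe and Abca1, at -0.06 in the authors' deposited table (SE 0.22). Over the 9 lists, 42 of 167 tested genes (25.1%) were called lower and 10 higher. Against these counts stand 11.7% lower and 11.3% higher over all genes tested, and 18.2% and 8.07% over genes at least as abundant as Fabp4. These lists were chosen with earlier results of the data known.

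The labelled cell type was checked against its markers. All 18 macrophage markers were listed, the highest being Sirpa, at a mean of 188567 normalized counts in the authors' deposited table, and 6 were called lower and 2 higher, with a median log2 fold change of -0.16. Their summed derived means were 1200540 in control and 1161460 in knockout cells. Over all genes tested 11.7% were called lower and 11.3% higher. Stromal markers moved with the genotype: 16 of 17 were called higher, 0 lower, at a median of 1.91, and their summed derived means were 2349 in control and 8594 in knockout cells. The control sum lay below the mean of every member, and the knockout sum below that of each except Fabp4. A sum of markers does not give how much of a member's RNA such cells make. The highest stromal marker, Col1a1, had a mean of 1012 normalized counts in the authors' deposited table. Spp1, Lpl, Cd9, Lgals3 and Fabp4 are also known from other cell types, and the part of stromal cells in their values was not tested. Adipocytes, which make much Fabp4 and Lpl, were barely seen: of 10 markers 2 had a value, with summed derived means of 8.4 in control and 4.45 in knockout cells. Endothelial cells also make Fabp4. Of 6 endothelial markers with a value, 3 were called higher, Pecam1 (0.82, SE 0.23), Cdh5 (0.60, SE 0.21) and Egfl7 (1.29, SE 0.40) in the authors' deposited table. There 1 was called lower, Kdr, the VEGF receptor gene, at -1.30 (SE 0.19) and a mean of 431 normalized counts. The list's summed derived means were 3037 in control and 2424 in knockout cells. The highest endothelial marker was Vwf, at a mean of 2069 normalized counts in the authors' deposited table. Vwf was not called, and its derived means were 2252 in control and 1886 in knockout cells. The part of endothelial cells in the fall of Fabp4 was not tested. Osteoclasts are rich in Spp1 and Gpnmb, and of 7 tested osteoclast markers 1, Ctsk, was called lower, with a list median of 0.07. Neutrophil (3 tested), lymphoid (3) and dendritic (4) markers had no calls, and of 2 tested mast cell and basophil markers Gata2 was called higher. The highest of these markers were Csf3r, at a mean of 3401 normalized counts, Cd79b, at 106, Zbtb46, at 18.2, and Kit, at 32.0, in the authors' deposited table.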

How the data were processed

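The tools named are cutadapt, FastQC, DESeq2 and Salmon, and the build is mm10, per the submitters' processing notes, without versions or roles. Per the file headers, the deposited comparison gives each gene a mean normalized count of the 8 libraries (a signal made by the authors), their log2 fold change with its standard error, their Wald statistic (a score), and their p-value and adjusted p-value. The statistic equalled the fold change over its SE to within 1.1e-07, and recomputed Benjamini-Hochberg values differed from the deposited ones by at most 5.7e-09. The 8 columns of values per library match no sample label and were not used, so depth per library is unknown and counting error is not given. Genes were called at the authors' adjusted p under 0.05, two-sided, over all genes.

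Computed here, in Python 3.11.15 with scipy 1.17.1, were group means (equal group sizes assumed), 95% normal intervals, counts per list and alternatives, tested on simulated data. The direction was read from Lyz2. Positions, transcript lengths and 3' UTRs came from GENCODE M21 (GRCm38), in which 15187 genes (95.8%) matched 1 gene by symbol; miRNAs and promoters came from RefSeq (GRCm38.p6). The planned protein comparison was replaced by shared runs between transcripts. The members and all lists were chosen with earlier results of these data known. Named were all members, Lyz2, up to 4 called genes per list with the smallest adjusted p, and the most abundant markers; other genes are said to be chosen after their values were seen.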

Additional observations from a re-analysis of the deposited data

How the results depend on the processing

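The count of members called lower was 5 without a filter on low means, at a mean of at least 50 and with centring on the median. It was 3 with fold changes centred on the summed group means (a log2 shift of -0.06), also with Lyz2 left out of the sums, 3 at an adjusted p under 0.01, and 0 against a 1.2-fold change. Fabp4, Fabp5 and Gpnmb were the 3 in each case. The members called higher were 0, and 1 (Lpl) under both centrings on the sums. All 10 members kept their sign under the 3 centrings, which shift all genes alike, and the other 4 alternatives leave the fold changes as they are. Over all genes, 1712 lower and 1651 higher became 960 and 2339 with centring on the sums, so that the share of calls that were higher moved from 49.1% to 70.9%, and 1046 and 2197 (67.7%) without Lyz2. They became 1009 and 1047 at an adjusted p under 0.01, and 84 and 440 (84.0%) against a 1.2-fold change. Of the other listed genes, 42 lower and 10 higher became 27 and 17 with centring on the sums, 28 and 16 without Lyz2, 26 and 7 at an adjusted p under 0.01, and 6 and 2 against a 1.2-fold change. Of 126 recomputed counts of single lists, 92 stayed within 1.5 times. Trem2 and Lgals3 lost their calls under both centrings on the sums.

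No paired analysis was possible because no replicate number of the labels appears in the column names of the table by library. The limma fit and the fits without single libraries were not run, as those columns match no label.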
